A study of Sparus aurata with 9 samples.

Results

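Cells that run short of amino acids, or whose endoplasmic reticulum fills with unfolded protein, slow protein synthesis through a shared route called the integrated stress response. Kinases such as Gcn2, which senses uncharged tRNA, and Perk, which senses unfolded protein, phosphorylate the initiation factor eIF2α. General translation then falls, while the mRNA of the transcription factor Atf4 is translated more. In mammals, Atf4 and its partners of the bZIP family switch on genes such as Ddit3 (Chop), Trib3 and Chac1, and Trib3 and Chop also act back on the pathway.

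The genes described here are the regulators and early targets of this response in cultured muscle cells of gilthead sea bream (Sparus aurata). They were chosen by symbol, as every gene named atf3, atf4, atf5, ddit3, trib3, chac1, cebpb, cebpg, eif2ak3 or eif2ak4, with or without a letter for a duplicate. The rule found 12 of 27159 genes in the table of counts, of which 17082 carry a symbol. They were the kinases eif2ak3 and EIF2AK4, the transcription factors atf4a, atf4b, atf5a, atf5b, atf3, ddit3 and cebpg, the pseudokinase trib3, and chac1 and CHAC1. A gene under the symbol cebpb was not analysed here.

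The 9 RNA-seq libraries, 3 per group, came from primary myoblasts of fast muscle of fingerlings. Amino acid restriction began on day 8 of culture. All cells spent 12 h without amino acids, in a salt solution with glucose and vitamins. For the following 24 h, AA myoblasts were given DMEM, which brings amino acids and is also another base medium, Igf-1 myoblasts stayed in the restriction medium with recombinant sea bream Igf-1 and an albumin carrier, and CTR myoblasts stayed in it with no addition, 36 h of restriction in all. No library came from before these 24 h, so that rose and fell below mean higher and lower than in the group compared. The words with amino acids stand for the AA medium as a whole. The study names 3 independent cultures, and which library came from which is not given, so that p-values measure the spread between these libraries.

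Library totals ran between 48725967 and 67887824 estimated counts. Normalized counts below are counts scaled to the mean effective library size with TMM factors, which ran from 0.791 in CTR replicate 3 to 1.21 in AA replicate 3. All 12 genes passed the filter on low counts and were tested among 17687 genes with edgeR's quasi-likelihood test. A gene was called where its log2 fold change (log2FC) reached 1 in size with an adjusted p not above 0.05. Muscle markers were present in every library and their summed normalized counts lay at 979000 to 1424000 in AA, 688100 to 845400 in Igf-1 and 470400 to 759700 in CTR myoblasts. In bulk libraries, fewer cells of a type and less RNA per cell cannot be told apart.

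The mRNAs of this pathway differed widely in abundance. On the FPKM scale, which corrects for transcript length, chac1 (ENSSAUG00010024636), an enzyme that breaks down glutathione, had the highest level, with a mean of 964 FPKM over the 9 libraries (range 524 to 1326), above 99.4% of the 21876 genes with a level above 0. It was followed by atf4b at 442 FPKM (323 to 590), ddit3 at 418 FPKM (246 to 583) and atf4a at 406 FPKM (288 to 474), whose ranges overlapped. Within each library chac1 lay above atf4b, but in AA replicate 3 it stood at 0.979 times ddit3. The order of the 3 transcription factors differed between groups. The FPKM of atf4a was 0.557 to 0.872 times that of ddit3 in AA, 1.02 to 1.11 times in Igf-1 and 1.04 to 1.93 times in CTR libraries, and that of atf4b 0.567 to 0.954 times in AA, 0.992 to 1.17 times in Igf-1 and 1.19 to 2.23 times in CTR libraries. Both atf4 copies thus lay below ddit3 in every AA library and above it in every CTR library.

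A gap separated them from atf5b, with a mean of 90.0 FPKM (71.8 to 114), atf3 at 60.2 FPKM (41.8 to 89.5) and trib3 at 41.6 FPKM (20.7 to 65.5). The heterodimer partner cebpg had 14.2 FPKM (9.98 to 21.7). The kinase genes were low, with 6.85 FPKM for EIF2AK4 (4.70 to 7.93) and 3.29 FPKM for eif2ak3 (1.64 to 5.57). The duplicates CHAC1, at 1.21 FPKM (0.654 to 1.81), and atf5a, at 1.02 FPKM (0.644 to 1.80), were the lowest. Apart from the gaps between atf4a and atf5b and between cebpg and EIF2AK4, neighbours in this order had overlapping ranges.

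**Figure D1:**
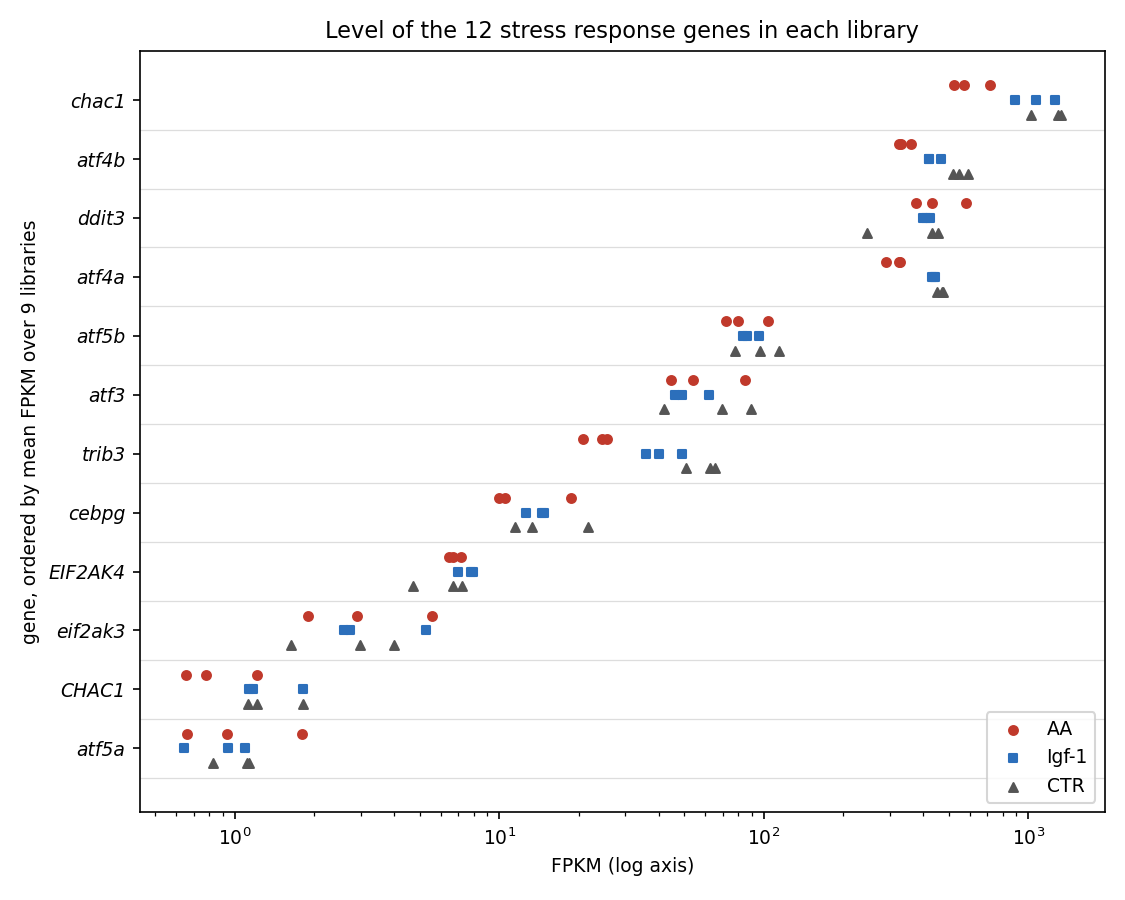
Level of the 12 genes in each of the 9 libraries, in FPKM on a log axis, with 1 point per library coloured by group (AA, Igf-1, CTR) and genes ordered by mean level. The points run from 0.644 FPKM for the lowest atf5a library to 1326 FPKM for the highest chac1 library, and within trib3, chac1, atf4a and atf4b the AA points lie lowest.

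The first comparison asked how these mRNAs answered to the return of amino acids. In AA myoblasts, trib3 and chac1 fell below the CTR level by more than the fold threshold, and the duplicates atf4a and atf4b fell by less. The other 8 genes did not pass the test, ddit3 and both kinases among them. The 2 genes called, of 12, were both lower, where 8.62% of all genes tested were called in either direction and 3.79% as lower. By adjusted p alone 4 of the 12 were lower, against a background of 7.74% lower and 15.2% in either direction. The log2FC was below 0 for 9 of the 12, with a median of −0.32 beside −0.01 over all genes tested.

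The pseudokinase gene trib3 (ENSSAUG00010025259), whose product in mammals binds Akt and Chop, is described in the deposited table as tribbles homolog 2-like. It had 2977, 3828 and 3063 normalized counts in AA replicates 1 to 3, 4849, 5939 and 7590 in Igf-1 replicates 1 to 3, and 7000, 8766 and 11466 in CTR replicates 1 to 3. All AA libraries lay below all others, whereas the highest Igf-1 library lay above the lowest CTR library. Its mean was 3290 ± 468 in AA and 9077 ± 2249 in CTR myoblasts (SD, n = 3 each), 2.76-fold lower with amino acids (log2FC −1.46, standard error 0.22, 95% interval −1.96 to −0.97, edgeR adjusted p = 0.00187). The call held in all 18 alternative settings tried, with a log2FC between −1.62 and −1.21.

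For chac1, normalized counts were 30597, 45493 and 27795 in AA, 48592, 64488 and 79051 in Igf-1, and 57174, 69849 and 98384 in CTR replicates 1 to 3. The AA libraries again lay below every other library, and the Igf-1 and CTR libraries overlapped. The AA level was 46.1% of the CTR level (log2FC −1.12, standard error 0.27, 95% interval −1.73 to −0.51, edgeR adjusted p = 0.0203). This call rested on single libraries: the edgeR adjusted p was 0.104 without AA replicate 1, 0.0623 without AA replicate 3 and 0.0583 without CTR replicate 3, with log2FC values of −0.98, −0.98 and −0.84.

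Both copies of the central factor of the response were lower in AA than in CTR myoblasts. The gene atf4b (ENSSAUG00010016353) had 40786, 49062 and 34784 normalized counts in AA, 49658, 54769 and 63018 in Igf-1, and 62392, 69093 and 87802 in CTR replicates 1 to 3. Its AA libraries lay below all CTR libraries and, narrowly, below all Igf-1 libraries. The AA level was 56.8% of the CTR level (log2FC −0.82, standard error 0.20, edgeR adjusted p = 0.0188).

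The copy atf4a (ENSSAUG00010014543) had 45215, 55737 and 42511 normalized counts in AA, 64536, 69867 and 74676 in Igf-1, and 67992, 68703 and 94388 in CTR replicates 1 to 3. Its AA libraries were the lowest of the 9, and the Igf-1 and CTR libraries overlapped. The AA level was 62.1% of the CTR level (log2FC −0.69, standard error 0.19, edgeR adjusted p = 0.0326). The adjusted p of atf4a stayed at or under 0.05 in 9 of the 18 alternatives and that of atf4b in 13. For atf4a it was between 0.0538 and 0.151 without AA replicate 1, AA replicate 3, CTR replicate 3 or any 1 Igf-1 library, and for atf4b between 0.0517 and 0.0924 without AA replicate 1, AA replicate 3 or CTR replicate 3. In a fit of AA and CTR libraries alone it was 0.104 for atf4a and 0.0633 for atf4b.

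Chop, the product of ddit3 (ENSSAUG00010024012), is a transcription factor tied to cell death under lasting stress. Its gene had 33072, 31123 and 37116 normalized counts in AA, 29300, 33411 and 32717 in Igf-1, and 31665, 32139 and 23851 in CTR replicates 1 to 3. The 3 groups overlapped, and the lowest library of all was CTR replicate 3. The log2FC of AA over CTR was 0.21 (95% interval −0.16 to 0.57, edgeR adjusted p = 0.472), an interval that does not reach the decreases estimated for trib3, chac1 or either atf4 copy. RefSeq places ddit3 over mars1, a tRNA synthetase gene, and whether strand was used in counting is not stated. mars1 itself had a log2FC of 0.03 (edgeR adjusted p = 0.927).

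**Figure D2:**
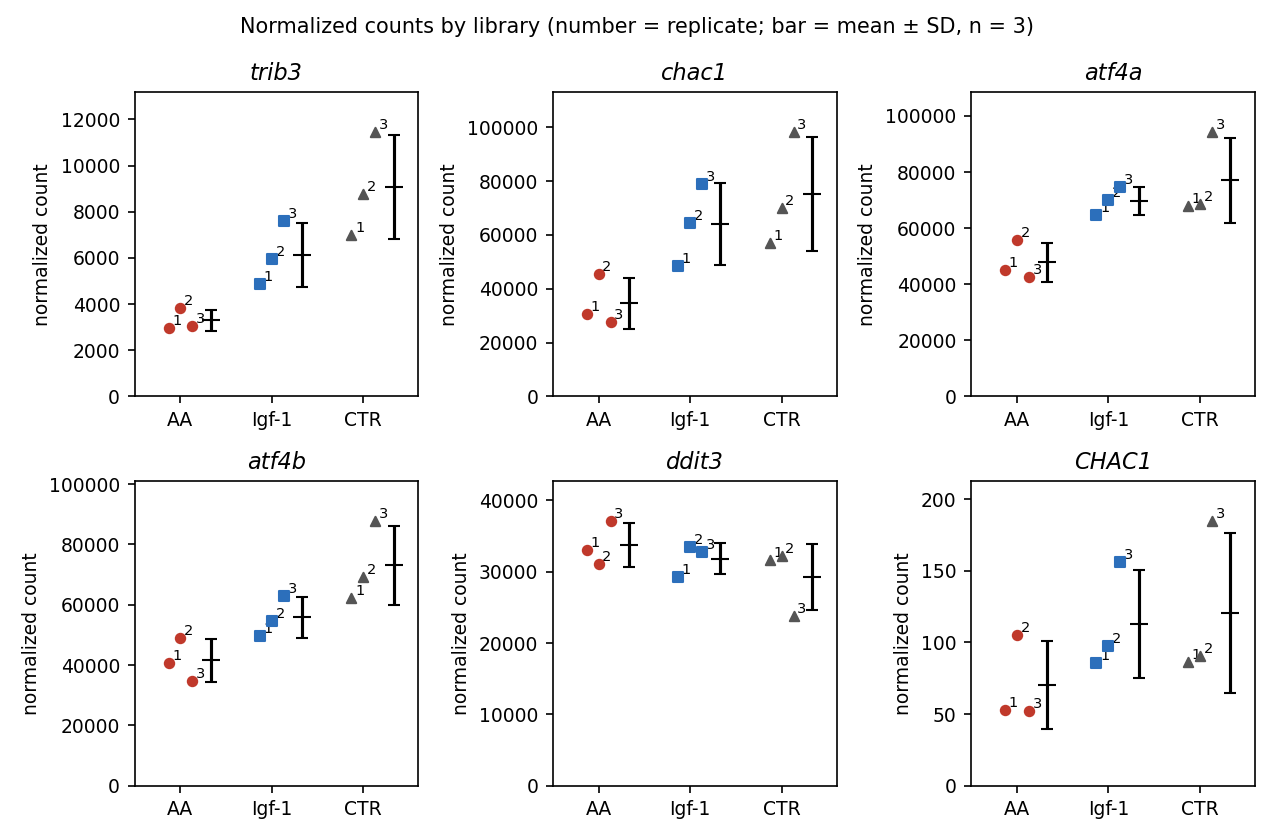
Normalized counts of trib3, chac1, atf4a, atf4b, ddit3 and CHAC1 in the 9 libraries, with a panel per gene, groups in the order AA, Igf-1 and CTR, replicate numbers as points and the mean ± SD as bars (n = 3). For trib3, chac1, atf4a and atf4b every AA point lies below every CTR point, and for ddit3 and CHAC1 the groups overlap.

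Among the remaining transcription factors, atf5b (ENSSAUG00010006888), a relative of atf4, had 9876 ± 545 normalized counts in AA and 12043 ± 835 in CTR myoblasts (SD, n = 3 each). Its AA and CTR libraries did not overlap in normalized counts, but they did when scaled to library totals. The difference did not pass (log2FC −0.29, edgeR adjusted p = 0.166). The stress-induced repressor atf3 (ENSSAUG00010019073) had 7636 ± 1533 in AA and 8968 ± 1991 in CTR (log2FC −0.23, edgeR adjusted p = 0.514), and its libraries overlapped. For cebpg (ENSSAUG00010006988), the log2FC was −0.36 (standard error 0.24, edgeR adjusted p = 0.390). The duplicate atf5a (ENSSAUG00010025217) had 140 ± 53.9 normalized counts in AA and 140 ± 0.839 in CTR, which is a log2FC of −0.01 (edgeR adjusted p = 0.995).

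The kinase genes upstream showed no difference beyond their spread. EIF2AK4 (ENSSAUG00010019343), which encodes Gcn2, had 2802 ± 221 normalized counts in AA and 2724 ± 161 in CTR (log2FC 0.04, 95% interval −0.25 to 0.33, edgeR adjusted p = 0.894). The gene of Perk, eif2ak3 (ENSSAUG00010022861), varied more, with 1283, 907 and 2058 in AA and 1260, 1655 and 923 in CTR replicates 1 to 3. Its interval was accordingly wide (log2FC 0.15, 95% interval −0.61 to 0.90, edgeR adjusted p = 0.843).

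CHAC1 (ENSSAUG00010026654), the rare duplicate of chac1, had 52.6, 105 and 52.3 normalized counts in AA and 86.4, 90.3 and 185 in CTR replicates 1 to 3. Its groups overlapped through AA replicate 2, and its log2FC of −0.78 did not pass (standard error 0.45, edgeR adjusted p = 0.300). Single libraries set its size, with a log2FC of −1.19 without AA replicate 2, −0.29 without CTR replicate 3 and −0.16 without CTR replicate 3 and AA replicate 3, none of which passed. Within a library the FPKM of chac1 was 593 to 1064 times that of CHAC1. Reads shared between such duplicates, as between atf4a and atf4b or atf5a and atf5b, could be split either way by the counting, and this was not tested.

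Groups that do not overlap give a second description of the same contrast. Of the 12, 5 had all AA libraries below all CTR libraries in normalized counts, namely atf4a, atf4b, atf5b, trib3 and chac1, where 16.0% of all genes tested did. Scaled to library totals alone, 4 did, all of these but atf5b, against 12.1% of all genes. That scaling moved the median log2FC of all genes by 0.105, and under it chac1 had a log2FC of −1.002 and stayed called.

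The second comparison asked what Igf-1 did in the absence of amino acids. None of the 12 genes passed, where 0.260% of all genes tested were called and 0.283% had an adjusted p of at most 0.05. DESeq2 also called 0 of the 12. At an unadjusted p under 0.05 there was 1, trib3, where 9.11% of all genes were. Its mean was 6126 ± 1380 normalized counts in Igf-1 and 9077 ± 2249 in CTR myoblasts (SD, n = 3 each; log2FC −0.57, standard error 0.22, edgeR adjusted p = 0.443).

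The other log2FC values of Igf-1 over CTR were small. They were −0.39 for atf4b (edgeR adjusted p = 0.629), −0.35 for atf3 (0.698), −0.23 for chac1 (0.932) and −0.14 for atf4a (0.944). EIF2AK4 had the largest positive difference after eif2ak3, 0.27, with all Igf-1 libraries above all CTR libraries, where 9.35% of genes did so, and did not pass (edgeR adjusted p = 0.601). Its Igf-1 libraries had 3092 to 3595 normalized counts and its CTR libraries 2558 to 2880, and scaled to library totals they overlapped. For atf5b, with a log2FC of −0.15, all Igf-1 libraries lay below all CTR libraries in normalized counts, where 7.88% of genes did. Scaled to library totals, 3 genes did so instead, atf4a, atf4b and trib3, against 6.59% of all genes. The median over the 12 genes was −0.16, beside −0.00447 over all genes tested. The comparisons of AA and of Igf-1 with CTR share the CTR libraries.

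Set directly against Igf-1 myoblasts, which differ in base medium, Igf-1 and carrier as well as amino acids, AA myoblasts had less trib3. AA myoblasts had 3290 ± 468 and Igf-1 myoblasts 6126 ± 1380 normalized counts (log2FC −0.90, standard error 0.22, 95% interval −1.39 to −0.41, edgeR adjusted p = 0.0331), under the fold threshold. None of the 12 was therefore called, by edgeR or by DESeq2, where edgeR called 4.33% of all genes. By edgeR's adjusted p alone trib3 was the 1 gene that passed, where 8.37% of all genes did. DESeq2 passed trib3 (adjusted p = 0.00624) and chac1 (0.0273), edgeR with total-count scaling passed trib3 (0.0120), chac1 (0.0176), atf4a (0.00778) and atf4b (0.0412), and limma on log2(FPKM + 1) passed trib3 (0.0215), chac1 (0.0306) and atf4a (0.0347). Over the 22 alternatives the adjusted p was at or under 0.05 in 14 for trib3, 6 for chac1, 4 for atf4a and 2 for atf4b. For chac1 the edgeR adjusted p was 0.101 with RLE factors and 0.112 with the replicate number as a block. The share of all genes passing under each alternative is not given. The edgeR adjusted p of trib3 exceeded 0.05 in alternatives that left out AA replicate 1 (0.145), AA replicate 3 (0.087), Igf-1 replicate 2 (0.0989), Igf-1 replicate 3 (0.146) or CTR replicate 2 (0.0506). In limma it did so on log2(FPKM + 0.01) (0.0617) and on log2(FPKM + 0.1), with a minimum mean of 0.1 FPKM (0.0527) or without it (0.0635).

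At an unadjusted p under 0.05, 3 of the 12 genes were lower in AA than in Igf-1 myoblasts, trib3, chac1 and atf4a, where 21.4% of all genes passed in either direction and 11.1% as lower. The log2FC was −0.89 for chac1 (edgeR adjusted p = 0.0780), −0.54 for atf4a (0.115) and −0.43 for atf4b (0.245). In normalized counts, 6 of the 12 had all AA libraries below all Igf-1 libraries, namely atf4a, atf4b, atf5b, trib3, chac1 and EIF2AK4, where 16.7% of all genes did, and 4 did when scaled to library totals, atf4a, atf4b, trib3 and chac1, against 13.7%. Without AA replicate 2, which had the highest AA level of chac1, trib3 (log2FC −1.02) and chac1 (−1.13) both passed with the fold threshold, at edgeR adjusted p of 0.0419 and 0.0456. Of the 9 fits with 1 library left out, this was the 1 that called chac1, and 2 called trib3. The edgeR adjusted p of chac1 was 0.271 without AA replicate 1, 0.189 without AA replicate 3, 0.201 without Igf-1 replicate 2 and 0.277 without Igf-1 replicate 3.

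**Figure D3:**
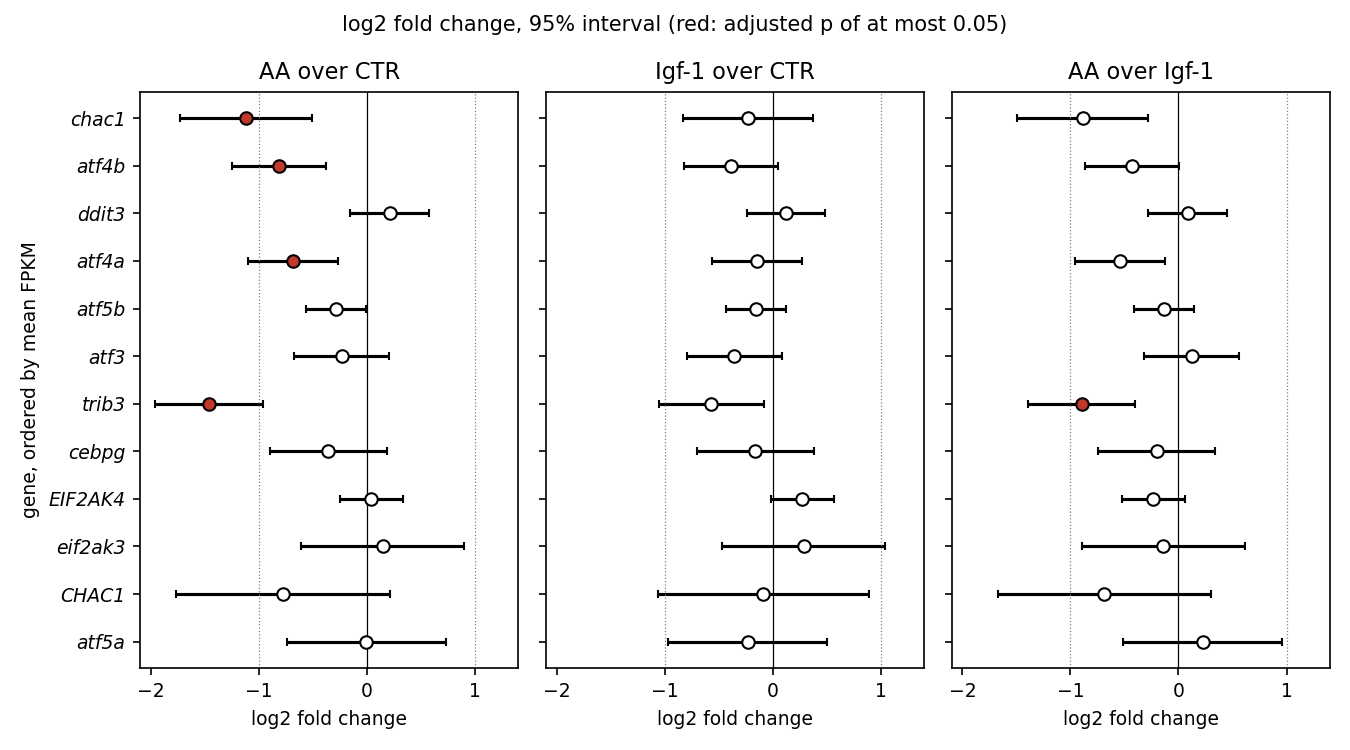
Log2FC of the 12 genes with its 95% interval from edgeR, in 3 panels for AA over CTR, Igf-1 over CTR and AA over Igf-1, with the lines of the fold threshold at −1 and 1. For AA over CTR the estimates of trib3 (−1.46) and chac1 (−1.12) lie beyond −1, and for Igf-1 over CTR all 12 estimates lie within the lines.

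Ratios within a library do not depend on how libraries are scaled. The FPKM of trib3 was 0.0477, 0.0651 and 0.0437 times that of ddit3 in AA, 0.0876, 0.0941 and 0.123 times in Igf-1, and 0.117, 0.144 and 0.255 times in CTR replicates 1 to 3. The AA ratios lay below the Igf-1 ratios, and of those only that of replicate 3 reached the range of CTR. Against atf4a, trib3 stood at 0.0716 to 0.0784 in AA, 0.0817 to 0.111 in Igf-1 and 0.112 to 0.139 in CTR, so that the 3 groups did not overlap. The ratio of trib3 to chac1 was 0.0341 to 0.0446 in AA, 0.0373 to 0.0404 in Igf-1 and 0.0472 to 0.0508 in CTR libraries. That of atf4b to atf4a was 1.02 to 1.12 in AA, 0.956 to 1.05 in Igf-1 and 1.14 to 1.25 in CTR libraries. In both ratios the CTR libraries lay above all others, while AA and Igf-1 overlapped.

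In normalized counts, trib3, chac1, CHAC1, atf4a and atf4b were high in the same library within each group. CTR replicate 3 stood above the log2 mean of its group by 0.37 for trib3, 0.43 for chac1, 0.71 for CHAC1, 0.31 for atf4a and 0.28 for atf4b, and its values of ddit3, atf3 and eif2ak3 stood at −0.28, −0.32 and −0.43. AA replicate 2 stood above its group by 0.23, 0.43, 0.66, 0.23 and 0.25 for the first 5 genes, with −0.11, −0.23 and −0.56 for the other 3. Igf-1 replicate 3 had the same pattern for the first 5 genes at 0.33, 0.33, 0.51, 0.10 and 0.18. These were the libraries with the lowest TMM factor of each group (0.791, 0.929 and 0.939), and the part of the scaling in these deviations was not tested. In FPKM, trib3 was instead highest in AA replicate 3 (25.5) and CTR replicate 2 (65.5), and atf4b in CTR replicate 2 (590). The highest libraries of chac1, CHAC1 and atf4a stayed the same in FPKM, but for chac1 and atf4a the lead of CTR replicate 3 was small there. In CTR replicates 1 to 3, atf4a had 453, 472 and 474 FPKM and chac1 1023, 1288 and 1326 FPKM.

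The choice of scale altered how even the groups looked. The coefficient of variation of atf4a was 14.6% in AA, 7.28% in Igf-1 and 19.5% in CTR in normalized counts, and 7.0%, 1.37% and 2.44% in FPKM, which carries no TMM factor. For ddit3 it was 9.05% in AA, 6.92% in Igf-1 and 15.9% in CTR in normalized counts, and 23.0%, 3.06% and 30.3% in FPKM, so that the AA and CTR libraries were more even in normalized counts and the Igf-1 libraries in FPKM. On the FPKM scale, trib3 had 20.7, 24.5 and 25.5 in AA, 35.8, 40.0 and 49.1 in Igf-1, and 50.7, 65.5 and 62.6 in CTR replicates 1 to 3, and there the groups did not overlap.

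**Figure D4:**
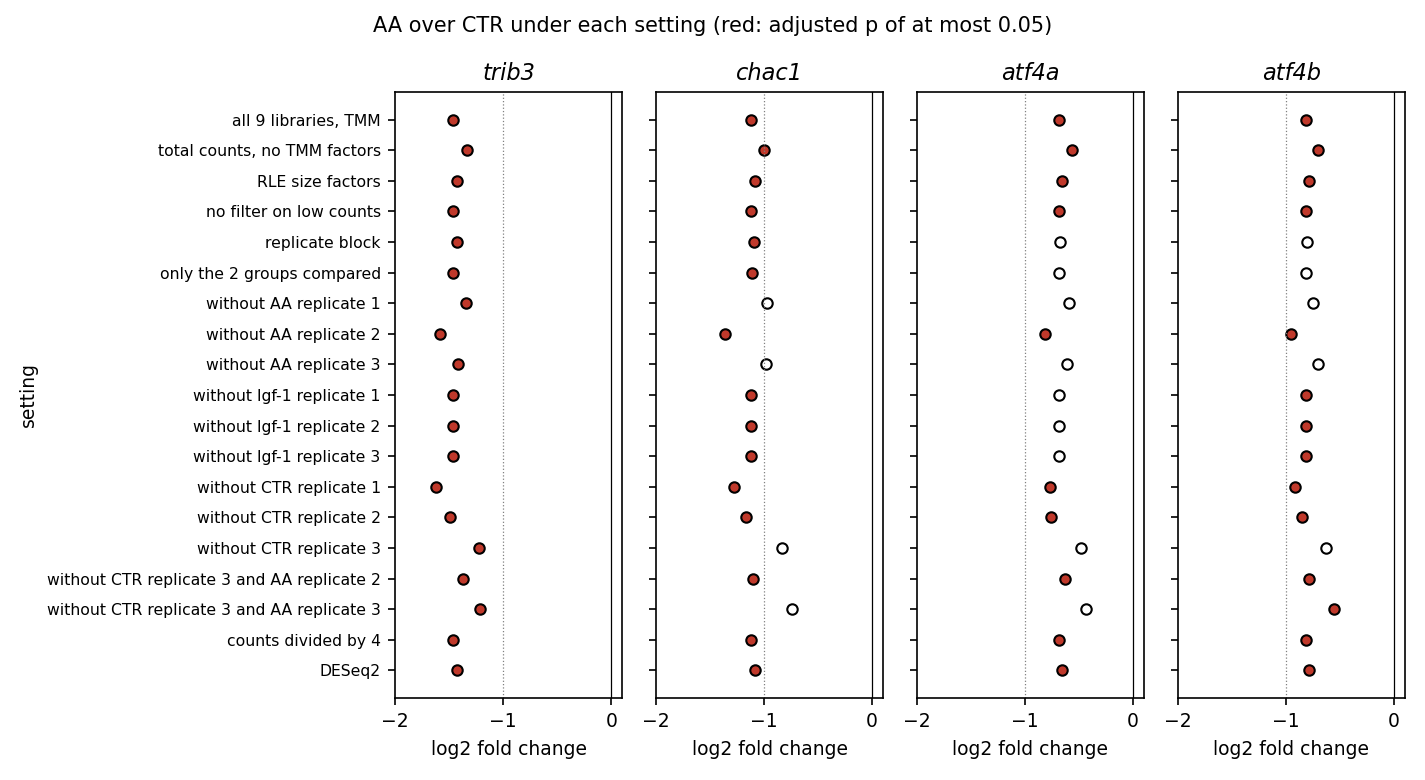
Log2FC of AA over CTR for trib3, chac1, atf4a and atf4b in the fit described and in 18 alternative settings, with points in red where the adjusted p was at most 0.05. All values lie below 0; trib3 is red throughout, between −1.62 and −1.21, chac1 has −0.84 without CTR replicate 3, beside −1.12 with all libraries, and atf4a is red in 9 of the alternatives.

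The genes whose pattern over the 9 libraries was most like that of trib3, by Pearson's r of log2 normalized counts among 11741 genes, were phlda3 (r = 0.993), slc35a2 (0.992), ndor1 (0.990), wu:fc63a07 (0.988), f2rl1.2 (0.987), si:dkey-44g23.5 (0.987), LYPD1 (0.985) and gpr184 (0.984). Of the other 11 regulators the most alike was atf4b (r = 0.972, rank 43), then chac1 (0.960, rank 97) and atf4a (0.948, rank 157), and ddit3 ran the other way (−0.631). Most like chac1 were glud1b (0.995), CDHR1 (0.994), riok1 (0.993), farsa (0.993), trappc5 (0.992), flcn (0.990), mrpl23 (0.989) and pepd (0.989), with atf4a at 0.980 (rank 23). The 9 points share their 3 groups and the scaling of each library, so that these values describe likeness only. Next to trib3 in RefSeq lies pnp4a, a purine nucleoside phosphorylase gene, which fell as well, with means of 28.7 in AA and 162 in CTR (log2FC −2.50, standard error 0.49, edgeR adjusted p = 0.00695). On the other side of trib3 lies atrip (ENSSAUG00010025260), which had a log2FC of −0.07 and did not pass (edgeR adjusted p = 0.938).

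Around these regulators, 12 lists of related genes were read in the same fit, 221 genes counted once. With amino acids, 15 of them rose and 32 fell at an adjusted p of at most 0.05. That is 21.3% in either direction, beside 15.2% of all genes tested in either direction and 7.74% as lower. At an unadjusted p under 0.05 there were 79, and DESeq2 passed 60, counts given without a share over all genes. The list of stress and growth arrest targets of Atf4 and Chop had the most decreases, 8 of 27 lower (29.6%) and 0 higher, with a median log2FC of −0.36. They included nupr1a, a stress-induced chromatin protein (log2FC −1.26, edgeR adjusted p = 0.00562), vegfab, an angiogenic growth factor (−0.84, 0.0119), the cell cycle brake gadd45ab (−0.90, 0.0131) and the autophagy gene map1lc3b (−0.59, 0.0150). The copy nupr1b was more abundant, with means of 7305 normalized counts in AA and 6719 in CTR, beside 677 and 1619 for nupr1a. Its log2FC was 0.12 and did not pass (edgeR adjusted p = 0.844). The copy vegfaa, at −0.81, did not pass either (edgeR adjusted p = 0.141). The count of 8 came to 1 without AA replicate 1, to 4 with total-count scaling or without AA replicate 3, Igf-1 replicate 2 or CTR replicate 1 or 2, and to 5 with replicate 1 or 3 of Igf-1 or replicate 3 of CTR left out.

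Genes that charge tRNA fell in part, 5 of 22 lower (22.7%) and 0 higher (median −0.24), where 7.74% of all genes tested were lower. Among them were farsa (log2FC −0.93), qars1 (−0.77) and aars1 (−0.72). That count was 0 without AA replicate 1, 2 without AA replicate 3 or CTR replicate 2 and 3 without CTR replicate 3. Of 14 amino acid transporter genes, 2 fell, a share of 14.3% beside 15.2% of all genes, namely slc38a4 (log2FC −1.90, edgeR adjusted p = 4.78e-04) and slc7a3a (−0.90, 0.0426), and 1 passed without AA replicate 1, AA replicate 2, CTR replicate 1, CTR replicate 2 or any 1 Igf-1 library and with total-count scaling. The amino acid synthesis targets of Atf4 moved both ways, 3 of 20 higher and 2 lower (25.0% in all, median 0.07). gpt2, an alanine transaminase (log2FC 0.92, edgeR adjusted p = 0.0120), shmt1 (0.95, 0.0207) and ALDH18A1 (0.53, 0.0482) rose, and cbsa (−0.54, 0.0403) and GOT1 fell. The classical Atf4 target asns, named after its value was seen, had a log2FC of −0.21 and did not pass (edgeR adjusted p = 0.562). This list passed 1 gene without AA replicate 1, AA replicate 2 or CTR replicate 2, 2 without any 1 Igf-1 library and 3 without CTR replicate 1 or with RLE factors.

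Among chaperones and other genes of the unfolded protein response of the endoplasmic reticulum, 6 of 36 rose and 2 fell (median 0.02). That is 22.2%, beside 15.2% of all genes tested. creld2 (log2FC 1.66, edgeR adjusted p = 0.00140), manf (ENSSAUG00010013852, 1.42, 0.0210), pdia4 (1.02, 0.00839) and dnajc10 (0.80, 0.0123), which fold proteins or guard the secretory pathway, rose, while dnajb9b and herpud1 fell. A second gene under the symbol manf had a log2FC of 1.01 and did not pass (edgeR adjusted p = 0.0897). The count of 8 came to 4 without AA replicate 1 or AA replicate 3, 5 without Igf-1 replicate 2 and 3 without CTR replicate 2. Of 19 genes listed for glutathione, the substrate of Chac1, 31.6% passed, 2 higher and 4 lower (median −0.14). The list includes the heme oxygenase duplicates, which degrade heme, and without them 1 of 17 rose and 3 fell. They moved apart, hmox1a at a log2FC of 3.09 (edgeR adjusted p = 0.00153) and HMOX1 at −1.93 (3.82e-04). Of the others, oplah, which opens the 5-oxoproline that Chac1 releases (log2FC −1.29, edgeR adjusted p = 0.00263), and gclc, which starts glutathione synthesis (−0.90, 0.00648), fell.

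Of 22 other bZIP factors (median −0.25), 18.2% passed, beside 15.2% of all genes tested, 1 higher and 3 lower. These were NFE2L1 (log2FC 0.77, edgeR adjusted p = 0.00987), cebpd (−1.88, 9.14e-04), maff (−1.01, 0.0121) and the antioxidant regulator nfe2l2a (−0.63, 0.0299). The gene nfe2l1a in the same list had a log2FC of 0.08 and did not pass (edgeR adjusted p = 0.959). The count of 4 came to 2 without AA replicate 1 or with total-count scaling. Of 10 genes listed as eIF2α kinases, their activators and inhibitors, abcf1 rose (log2FC 1.10, edgeR adjusted p = 0.00508), and 3 passed with total-count scaling or without CTR replicate 3. None of 13 genes of eIF2, eIF2B and the eIF2α phosphatase passed in edgeR (2 at an unadjusted p under 0.05, 2 in DESeq2, 2 with total-count scaling, 1 with RLE factors and 1 without CTR replicate 3). None of 3 relatives of tribbles and ChaC passed either (1 at an unadjusted p under 0.05, 0 in DESeq2). The mitochondrial chaperone hspa9 (log2FC −0.73, edgeR adjusted p = 0.0138) was the 1 of 11 mitochondrial stress genes that fell, a share of 9.09%. In this list 0 passed without AA replicate 1 or CTR replicate 2 or with total-count scaling. Of 25 genes listed for mTORC1 and its counterparts, which include FoxO factors and ubiquitin ligases, 28.0% passed, 2 higher and 5 lower (median 0.12). They included trim63a at a log2FC of 1.68 (edgeR adjusted p = 0.00236), fbxo32 at −1.21 (0.00168), tsc2 at −0.83 (0.00208) and FOXO1 at −2.73 (0.0156). FOXO1 was the rarer copy, with means of 26.4 normalized counts in AA and 178 in CTR. The copy foxo1a, at 1800 and 2593, had a log2FC of −0.53 (edgeR adjusted p = 0.0484). The count of 7 in this list came to 4 without AA replicate 1 or CTR replicate 2 and 3 without CTR replicate 1.

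With Igf-1, 0 of the 221 genes passed in edgeR. DESeq2 passed 9, and 27 had an unadjusted p under 0.05, where 9.11% of all genes tested did. Between AA and Igf-1 myoblasts, 14 were higher and 6 lower in AA, 9.05% of the lists beside 8.37% of all genes tested.

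**Figure D5:**
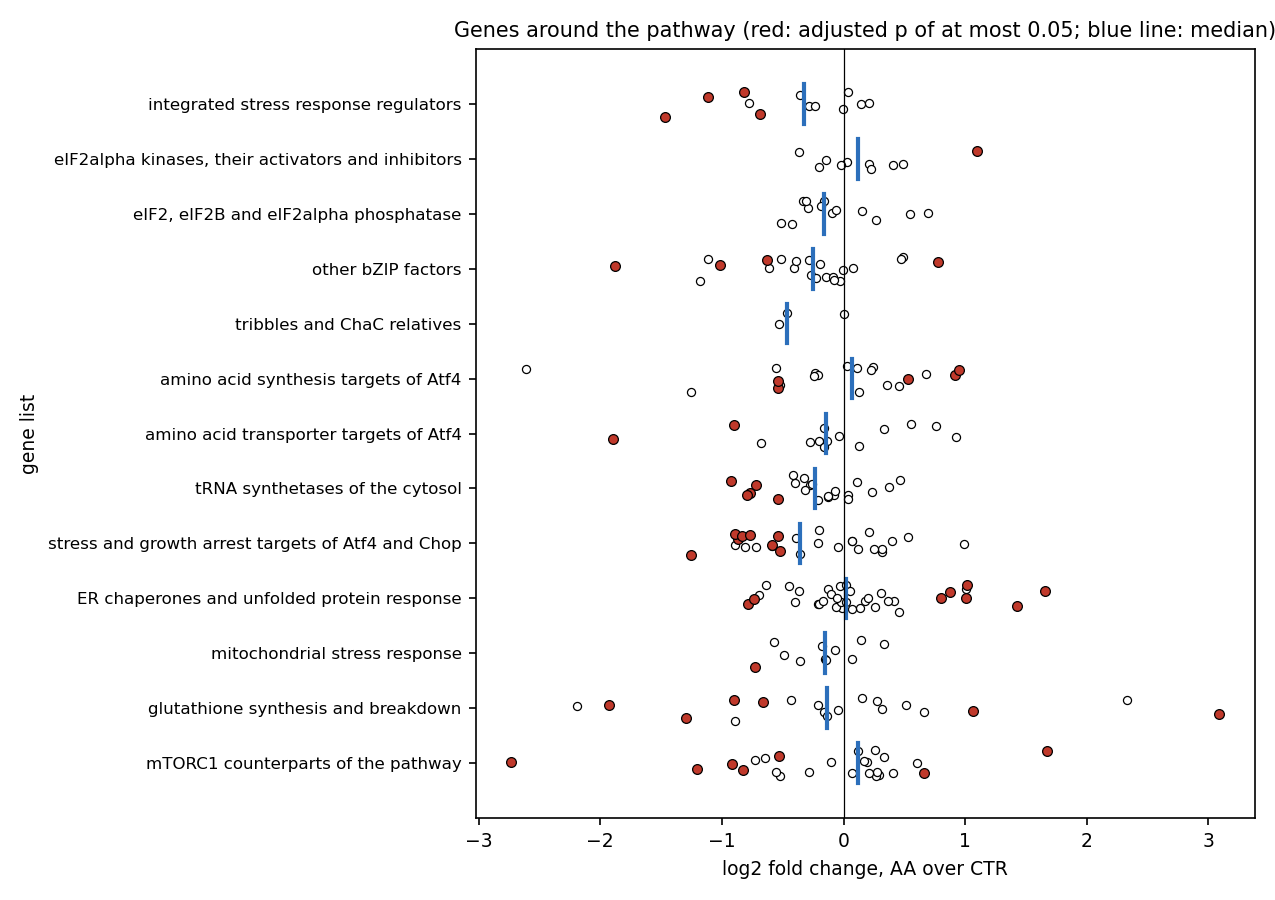
Log2FC of AA over CTR for the 12 regulators and for each gene of the 12 pathway lists, with 1 point per gene and a blue line at the median of each list. The medians run from −0.46 for the tribbles and ChaC relatives to 0.12 for the list of eIF2α kinases, activators and inhibitors and the mTORC1 list.

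Markers of cell types moved with the same contrast, 25 of 79 (31.6%) at an adjusted p not above 0.05, where 15.2% of all genes tested passed. In AA against CTR myoblasts, 9 of 24 muscle markers rose and 1 fell (median 0.44), among them myl1 (log2FC 3.82), ACTA1 (ENSSAUG00010015572, 2.13), mef2cb (1.18) and CHRNA1 (−1.37), with a second gene under the symbol ACTA1 at 0.15 (edgeR adjusted p = 0.766) and 6 passing without CTR replicate 1 or CTR replicate 2. The other gene under the CHRNA1 name, chrna1 (ENSSAUG00010004697), had a log2FC of 0.42 and did not pass (edgeR adjusted p = 0.13). Pigment cell markers had 1 higher and 4 lower of 15, including slc45a2 (−4.26), TYR (−1.51) and dct, which was at 0 in the 3 AA libraries and averaged 24.3 normalized counts in CTR, with summed normalized counts of 4269 to 4909 in AA and 5212 to 5666 in CTR. Endothelium markers had 1 higher (kdr, 1.22) and 1 lower (plvapb, −3.66) of 10, a median of 0.38 and sums of 2645 to 3361 in AA and 4514 to 7341 in CTR. Without plvapb the other 9 summed to 2360 to 3081 in AA and 1803 to 2161 in CTR, so that the direction of the sum rested on that gene. Leukocyte markers had 2 higher and 1 lower of 8, and sums of 18780 to 28270 in AA and 12980 to 20490 in CTR. Fibroblast markers had 1 higher and 2 lower of 10, neural and glial markers 2 higher and 0 lower of 9, and adipocyte markers 0 of 3 (1 at an unadjusted p under 0.05, 0 in DESeq2). Leaving out 1 library gave 1 to 5 fibroblast, 1 to 3 leukocyte and 0 to 1 neural markers, with the lowest counts without CTR replicate 1 or CTR replicate 2 in each list. In Igf-1 against CTR myoblasts, myl1 rose (log2FC 1.68, edgeR adjusted p = 0.0302) and plvapb fell (−2.13, 0.0130). The part of these cell types in the values of the 12 regulators was not tested.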

How the data were processed

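Per the paper, the authors trimmed reads and mapped them with HISAT2 to the Ensembl genome of the species, and estimated expression with StringTie. The build is not given in the sources used here. The deposited count table holds an estimated count per gene, which the authors labelled normalized, although library totals differ. Since the values cluster at 4, 8 and 12, about 4 counts per sequenced pair were inferred, which no source states. The deposited FPKM table of all genes covers AA and Igf-1 libraries, and the authors' FPKM of CTR libraries stands in tables of selected mRNAs and of lncRNAs. FPKM was therefore recomputed from counts for every library, with the library scale from 43 lncRNAs. This gave 99.8% of the CTR values of 1063 genes of the deposited AA and CTR table within 2%. For the regulators, the recomputed AA and Igf-1 values lay within 0.889% of the deposited ones. Columns with the authors' fold changes and p-values were not used.

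Estimated counts were rounded and fitted for the 3 groups together with edgeR 4.0.16 (R 4.3.3; TMM, filterByExpr, quasi-likelihood F test, Benjamini-Hochberg adjustment over all genes tested), although plain counts had been planned for. The standard error is the log2FC divided by the square root of F. The alternatives were RLE factors, total counts, no filter, counts divided by 4, DESeq2 1.42.0, limma 3.58.1 on log2(FPKM + 0.1) with pseudocounts of 0.01 and 1, 2 groups only, the replicate number as a block, and libraries left out. The fit was also run on simulated data, the outcome of which is not reported here. Intervals cover the spread between libraries, whose total counts set the depth.

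Named were all 12 genes, per list up to 4 genes with the smallest adjusted p among those at 0.05 or less in AA vs. CTR and any such gene in Igf-1 vs. CTR, and the 8 genes most like trib3 and chac1 (mean normalized count of at least 50). A gene that this rule names is not reported here. GOT1, dnajb9b, herpud1, asns, mars1, pnp4a, atrip, foxo1a, chrna1, nupr1b, vegfaa and nfe2l1a were named after their values were seen. Members and lists were chosen with earlier results of these data known. Names matched by symbol, and dctd and cebpz were dropped from lists as wrong matches. RefSeq (fSpaAur1.1) was used for neighbouring genes alone.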

Additional observations from a re-analysis of the deposited data

How the results depend on the processing

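Of 696 values of single genes under the alternatives, 651 kept their direction and side of the threshold, 36 turned sign, 5 newly passed and 4 no longer passed. Most of these values came from comparisons in which the gene was not called, so that keeping its side says little. In AA vs. CTR the call of trib3 held in 18 of 18 alternatives and that of chac1 in 14 of 18. Settings with total counts, without pairs of libraries or without the heme oxygenases were chosen after the data were seen. In AA vs. CTR, 1 to 2 genes were called with a library left out, 1 without CTR replicate 3 and AA replicate 3, and 4 with no fold threshold. In AA vs. Igf-1, 0 to 2 were called with a library left out, 2 without CTR replicate 3 and AA replicate 2, and 1 with no fold threshold. In Igf-1 vs. CTR, 0 were called throughout.

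Deviations from group means correlated at −0.34 to 0.189 between libraries of the same replicate number. Between libraries of unlike number they correlated at −0.269 to 0.354. These values cannot decide whether a number marks a shared culture, since each deviation is taken from a mean of 3 libraries. With the number as a block, 2, 0 and 0 regulators were called in AA vs. CTR, Igf-1 vs. CTR and AA vs. Igf-1, and 1283, 0 and 547 of all genes, beside 1525, 46 and 765 without the block. By adjusted p alone, the block left 2 of the 4 regulators lower in AA vs. CTR, with atf4a at 0.0761 and atf4b at 0.0508 (edgeR).

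Values that turned sign were near 0 or imprecise. With 1 or 2 libraries left out, log2FC ran from −0.42 to 0.38 (eif2ak3), −0.04003 to 0.10 (EIF2AK4) and −0.36 to 0.22 (atf5a) in AA vs. CTR, from −0.04808 to 0.51 (eif2ak3), −0.23 to 0.02766 (atf4a), −0.29 to 0.05293 (cebpg), −0.006783 to 0.20 (ddit3), −0.41 to 0.01155 (chac1) and −0.39 to 0.35 (CHAC1) in Igf-1 vs. CTR, and from −0.51 to 0.19 (eif2ak3), −0.13 to 0.45 (atf5a) and −0.05165 to 0.25 (atf3) in AA vs. Igf-1. For atf5a, AA over CTR was 0.14 with total counts, 0.017 with RLE factors, 0.015 with counts divided by 4 and 0.019 in DESeq2. The causes were not tested.

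The 3 libraries per group limit the precision, and the genes with the fewest counts, CHAC1 and atf5a, have the widest intervals beside eif2ak3.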
